A study of Macaca fascicularis with 6 samples.

Results

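SOSTDC1 encodes a secreted protein that binds BMP and WNT-pathway components, and its detection was the first condition for a small mesenchymal population of these cynomolgus monkey lungs. The population was defined by a gate on detected genes, not by clustering. A cell was a member if it had at least 1 UMI of SOSTDC1 (ENSMFAG00000006229) and at least 2 of 6 listed genes, namely ITGA8, PDGFRA, TNC, ASPN, FGF7 and ACTA2. It also had to lack PTPRC and PECAM1, the pan-leukocyte and endothelial markers, to hold fewer than 50 UMIs of ITLN1, and to show at most 1 of the smooth muscle genes ACTG2, CNN1 and DES and at most 1 of the pericyte genes COX4I2, HIGD1B, NOTCH3 and KCNJ8. These measured values selected the members, so levels of the gate genes are given as a description without a test. Of 25388 quality-controlled cells, 238 were members (0.937%).

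Cells came from the lungs of 6 male monkeys aged 3 to 5 years, each sequenced as 1 droplet single-cell library. The asthma group (libraries asthma 8, 10 and 11) was sensitized with Ascaris suum antigen at 1 mg/mL and challenged intranasally with 10 mg/mL antigen, and the control group (control 1, 2 and 3) received saline. The tissue was labelled as lung and was taken in week 11, and skin tests before the study had shown no or minimal reaction to the antigen. Libraries held between 29014556 and 41489879 UMIs in all, and the 238 members held 837538 UMIs, from 14988 in control 2 to 424898 in asthma 11, with a median of 2905.5 UMIs and 1410 genes per cell.

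Alveolar myofibroblasts are interstitial cells near alveolar ducts and septal tips. They are known for laying down elastic fibres during alveolar growth, for responding to PDGF through PDGFRA, and for carrying actin filaments without the full contractile programme of airway smooth muscle. BMP, WNT, hedgehog, FGF and TGF-beta signals pass between such cells and the neighbouring epithelium.

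Members were spread very unevenly over the libraries. Control 1 held 42, control 2 held 4, control 3 held 58, asthma 8 held 9, asthma 10 held 7 and asthma 11 held 118. Asthma 11 alone gave 49.6% of all members, and control 1, control 3 and asthma 11 together gave 91.6%, leaving 20 cells in the other 3 libraries. No member's barcode was shared with a member of another library, and library pairs shared between 5 and 13 barcodes of all cells.

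The share of quality-controlled cells was 0.931% in control 1 (exact 95% binomial interval 0.672 to 1.26%), 0.114% in control 2 (0.0310 to 0.291%) and 1.43% in control 3 (1.08 to 1.84%). In the asthma group it was 0.209% in asthma 8 (0.0956 to 0.396%), 0.148% in asthma 10 (0.0597 to 0.305%) and 2.76% in asthma 11 (2.29 to 3.29%). These intervals cover counting error only. Both groups therefore held low and high libraries, and their ranges overlapped.

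**Figure D1:**
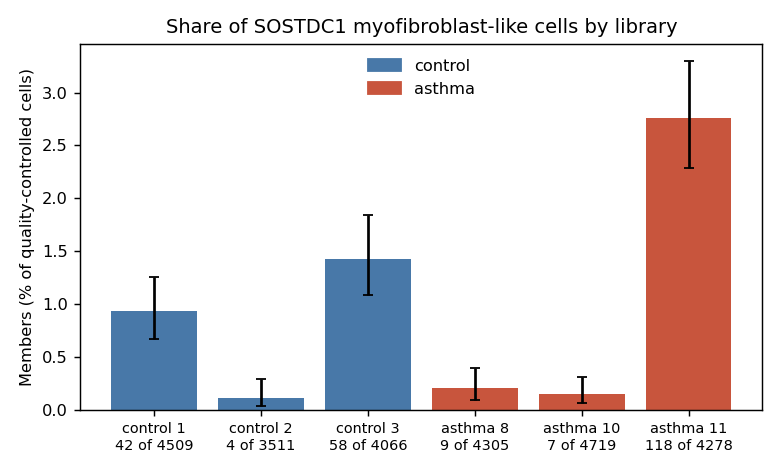
Bars give the members as a percentage of the quality-controlled cells of each library, with exact 95% binomial intervals; blue marks the control and red the asthma group. Asthma 11 (2.76%) and control 2 (0.114%) are the extremes, and each group holds at least 1 library below 0.21%.

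Mean shares were 0.824% ± 0.663 (SD, n = 3) in the control group and 1.04% ± 1.49 (SD, n = 3) in the asthma group. The difference of 0.215 percentage points was smaller than the spread within either group (two-sided exact permutation test over 20 assignments, p = 0.8, where 0.1 is the smallest p possible). Its sign rested on single libraries, being -0.140 without control 2 and -0.645 without asthma 11. Among the cells of 4 mesenchymal classes described further on, members made up 45.2% in control 1, 6.06% in control 2, 26.9% in control 3, 9.57% in asthma 8, 8.64% in asthma 10 and 27.8% in asthma 11. With that denominator the difference turned to -10.7 percentage points (control mean 26.0%, asthma mean 15.3%, exact permutation p = 0.7), and over PTPRC-negative cells it was -1.54 (exact permutation p = 0.8).

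SOSTDC1 itself was detected in 506 quality-controlled cells, and every one can be accounted for. PTPRC or PECAM1 removed 111 of them, ITLN1 at 50 or more UMIs removed 40, the smooth muscle gate 22 and the pericyte gate 1. A further 34 cells had none of the 6 listed genes and 60 had exactly 1, which left the 238 members. Of the members, 169 carried 2 or more SOSTDC1 UMIs and 69 carried a single one.

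SOSTDC1 was found in 0.477% of PTPRC-positive cells (95 of 19932, median 4380.5 UMIs per cell), a leukocyte compartment that should lack the gene. That share also differed by library, from 0.0821% in asthma 10 to 1.65% in asthma 11, and was 0.700% in control 3. It thus moved with the member share, and its part in the uneven member counts was not tested. In contractile smooth muscle cells SOSTDC1 was detected in 22 of 57 cells (38.6%, median 2314 UMIs), so detection of this gene did not by itself separate members from smooth muscle.

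The 6 listed genes were each present in only some members. PDGFRA, the PDGF receptor of the fibroblast lineage, was detected in 72.3% of members and FGF7, a growth factor for epithelium, in 68.5%. ACTA2, the smooth muscle actin, was detected in 58.8%. TNC, a matricellular protein, and ASPN, a small leucine-rich proteoglycan, were detected in 45.8% and 44.5%, and the integrin subunit ITGA8 in 36.6%.

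By library, TNC was detected in 73.8% of members in control 1, 27.6% in control 3 and 43.2% in asthma 11, the 3 libraries with over 10 members. ASPN was detected in 66.7%, 31% and 44.9% in the same order. Control 3 was the lowest of the 3 for both genes. ITGA8 was detected in 33.3%, 29.3% and 40.7%, and PDGFRA in 69.0%, 69.0% and 75.4%. SOSTDC1 itself had 1583, 1201 and 1466 CPM (UMIs per 1000000 UMIs of the summed member cells) in control 1, 2 and 3 and 414, 1104 and 970 CPM in asthma 8, 10 and 11.

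A gradient ran through the members. Of the 238, 79 had 2 of the 6 listed genes, 68 had 3, 48 had 4, 35 had 5 and 8 had all 6. The fibroblast proteoglycan DCN fell along this scale, from 26222 CPM in members with 2 listed genes to 15332 with 3 and 6897 with 4 or more. CLEC3B, a gene of adventitial fibroblasts, stood at 9611, 1608 and 1594 CPM. The pooled CLEC3B values were carried by control 3 (24723, 3164 and 1722 CPM), and in asthma 11 CLEC3B was flat at 1388, 1072 and 1365 CPM. It stood at 6899, 1266 and 1610 CPM in control 1 and at 4817, 1167 and 898 CPM in asthma 8. In asthma 10 CLEC3B was higher with 4 or more listed genes (3822 CPM) than with 2 (942 CPM). DCN fell along the scale from 31629 to 8653 CPM in control 3 and from 20764 to 5523 CPM in asthma 11.

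Other genes, named here after their values were seen, ran the other way. TAGLN, the actin-binding protein transgelin, stood at 1115, 2078 and 2987 CPM and the smooth muscle myosin MYH11 at 245, 308 and 704 CPM. TGFBR3, the TGF-beta co-receptor betaglycan, stood at 951, 1664 and 2696 CPM. SPHKAP, an anchoring protein for protein kinase A, stood at 224, 447 and 790 CPM. Not all signalling genes rose, since the BMP antagonist CHRDL1 stood at 843, 634 and 360 CPM. The hedgehog inhibitor HHIP stood at 161, 126 and 48.5 CPM, carried by control 3 (356, 39.3 and 0 CPM), and did not fall steadily in asthma 11 (73.8, 128 and 63.2 CPM). Median UMIs per cell were 2867, 2511 and 3059 in these bins. Within the last bin they were 2981.5, 3744 and 3385.5 with 4, 5 and 6 listed genes. The part of depth in the gradient was not tested.

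Just outside the gate, the 60 cells with 1 listed gene had 24383 CPM of DCN, 8728 CPM of CLEC3B, 976 CPM of TAGLN and 89.5 CPM of MYH11. Pooled over libraries, members with 2 listed genes lay closer to these cells than to members with 4 or more in each of 6 genes. The 6 include TGFBR3 (490 CPM outside) and SPHKAP (226 CPM outside). Control 3 gave 20 of the 60 cells outside and 29 of the 79 members with 2 listed genes, but 8 of the 91 with 4 or more. These bins were made from the gate's own genes, so they describe the members and do not test their label. In control 3, 29 of 58 members had only 2 listed genes, against 4 of 42 in control 1 and 38 of 118 in asthma 11.

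**Figure D2:**
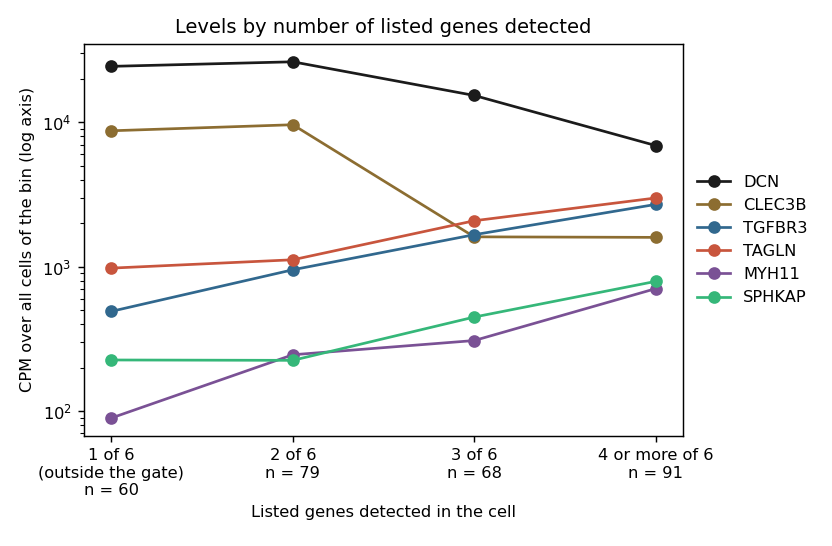
CPM on a log axis of 6 genes summed over cells that passed all other limits, by how many of the 6 listed genes were detected; the leftmost bin lies outside the gate. From 2 to 4 or more listed genes, DCN and CLEC3B decline and TAGLN, MYH11, TGFBR3 and SPHKAP rise, whereas DCN, CLEC3B and SPHKAP barely differ between the first 2 bins.

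Several genes that the gate did not use stood out in members against all other quality-controlled cells, and are given as a description. SPHKAP had 476 CPM in members and 5.68 CPM elsewhere. LTBP1, which stores latent TGF-beta in the matrix, had 747 against 14.5 CPM, and the microfibril-associated protein MFAP4 had 1706 against 53.8 CPM. GDF10, a BMP-family ligand, had 287 against 1.88 CPM, and the angiopoietin ligand ANGPT1 had 314 against 7.2 CPM. Most other cells were not mesenchymal, and against the nearest classes the contrast was smaller or absent. MFAP4 had 1764 CPM in matrix fibroblasts, and LTBP1 was not called against contractile smooth muscle (log2 fold change 0.70, edgeR adjusted p = 0.13).

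Of 13 listed alveolar myofibroblast and ductal genes, CDH4, DACH2 and STC1 had no UMI in members. The list summed to 774 CPM in members, 363 CPM in matrix fibroblasts, 1211 CPM in contractile smooth muscle and 1890 CPM in pericytes, classes described further on, so it was not highest in members. CRIM1, a transmembrane BMP-binding protein, had 436 CPM in members, 412 CPM in contractile smooth muscle and 1579 CPM in pericytes. FGF18 had 113 CPM and was detected in 23.9% of members, and the hedgehog inhibitor HHIP had 113 CPM, detected in 16.4%. HHIP was higher in matrix fibroblasts, at 137 CPM. The symbol ELN, for elastin, is not used for any gene in the files and was not analysed here.

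Among the marker lists of other cell types given here, the epithelial one had the highest sum. The gate required PTPRC and PECAM1 to be absent, which favours low leukocyte and endothelial markers. The 11 T and NK markers summed to 82.4 CPM and the 14 myeloid markers to 396 CPM, led by CD74 at 101 CPM. The 9 endothelial markers summed to 186 CPM, with CLDN5 at 0, and the 7 mesothelial markers to 7.16 CPM, with 5 of them at 0, WT1 and UPK3B included. The 11 epithelial markers summed to 698 CPM, led by the surfactant gene SFTPC at 349 CPM, with CDH1 at 0.

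Neighbouring mesenchymal classes were gated in the same way for comparison. Matrix fibroblasts (526 cells) had at least 3 of DCN, LUM, COL1A1, COL1A2 and COL3A1, no SOSTDC1 and at most 1 of ITGA8, TNC, ASPN and FGF7. Contractile smooth muscle cells (57) had at least 2 of ACTG2, CNN1 and DES, and pericytes (154) at least 2 of the 4 pericyte genes. The plot of levels by class shows members between the fibroblasts and the contractile cells for most muscle genes.

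**Figure D3:**
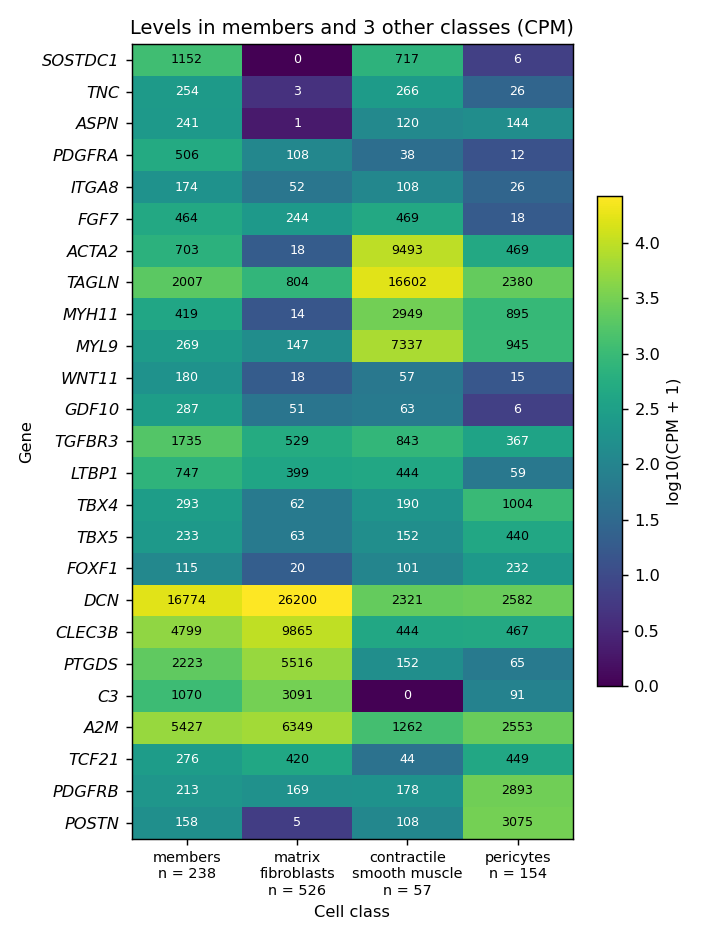
Numbers and colours give CPM (colour on a log10 scale) of 25 genes summed over the cells of each class, all 6 libraries together. TAGLN is 2007 CPM in members, 804 in matrix fibroblasts and 16602 in contractile smooth muscle; the first 7 genes and DCN belong to the gates.

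Against matrix fibroblasts, members had higher levels of 8 of 13 contractile genes and of the T-box factors TBX2, TBX3, TBX4 and TBX5, and lower levels of 11 of 12 adventitial fibroblast genes. Counts were summed per library and class and fitted with the library as a block, over control 1, control 3 and asthma 11, the libraries with at least 10 cells of both classes. Of 4742 genes tested outside the gates, 190 were higher in members (4.01% of genes) and 270 lower (5.69%), where a gene was called a DEG if its adjusted p was below 0.05 and its log2 fold change exceeded 0.25 in size. The values that follow are TMM-normalized CPM, and the gates themselves favour genes that vary with their own genes.

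MYH11 (ENSMFAG00000036773) had 413 CPM in members of control 1, 491 in control 3 and 442 in asthma 11. The matrix fibroblasts of the same libraries had 41.5, 12.6 and 27.1 CPM. Members were thus higher in each library, with no overlap between the classes (log2 fold change 4.22, SE 0.29, edgeR adjusted p = 6.6e-09).

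Of 13 contractile genes tested, 8 rose in members and none fell, with a median log2 fold change of 1.4 against -0.01 over all genes tested. Besides MYH11, the tropomyosins TPM2 and TPM1 had log2 fold changes of 1.58 and 1.4 and leiomodin LMOD1, an actin nucleator of muscle, 1.86. With all 6 libraries and a minimum of 4 cells, 6 of 12 contractile genes rose.

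WNT11, a ligand of the non-canonical WNT branch, had 199, 179 and 181 CPM in members and 10.4, 18.0 and 21.1 CPM in matrix fibroblasts, in the order control 1, control 3 and asthma 11. The members' values lay close together and far above the fibroblasts (log2 fold change 3.31, SE 0.29). Of 15 WNT pathway genes tested, SFRP4, a secreted WNT antagonist, also rose (log2 fold change 1.01) and the receptor FZD4 fell (-1.13). The other 12 did not pass the test.

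GDF10 had 540, 260 and 240 CPM in members and 109, 21.6 and 87.4 CPM in matrix fibroblasts of control 1, control 3 and asthma 11. Of 18 BMP pathway genes tested, 6 rose and none fell. They included GDF10 (log2 fold change 2.23) and the BMP target genes ID1, ID4 and ID2 (1.0, 1.28 and 0.71). With 6 libraries, GDF10 and TWSG1 rose out of 15 and ID3 fell.

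Of 16 TGF-beta pathway genes, 4 rose, and the co-receptor ENG fell (log2 fold change -0.81). TGFBR3 had 2232, 1838 and 1680 CPM in members against 691, 916 and 462 CPM in matrix fibroblasts, again without overlap (log2 fold change 1.52). The type 1 receptor TGFBR1 (1.04), the integrin subunit ITGB1 (0.82) and LTBP1 (0.68) were the others that rose. In the hedgehog pathway PTCH1, both receptor and target gene, rose with BOC (1.24 and 0.91), and the co-receptor CDON fell (-1.43), out of 6 tested. FGF18 rose alone among 5 FGF pathway genes (1.71).

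T-box factors specify lung mesenchyme, and TBX3, TBX2, TBX4 and TBX5 all rose in members (log2 fold changes 2.12, 1.77, 1.99 and 1.62). TBX3 had 453, 451 and 456 CPM in members and 72.7, 68.5 and 170 CPM in matrix fibroblasts. Of 22 mesenchymal transcription factors tested, 11 rose and 3 fell, with a median log2 fold change of 0.81. Those that fell were TCF21, PRRX1 and MEOX2.

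The genes with the largest increase also included VSNL1, a neuronal-type calcium sensor (log2 fold change 4.84, SE 0.53), NSG1 (3.88), the Eph ligand EFNB2 (3.70) and MCTP2 (3.53). RUNX2, a transcription factor of bone formation, had a log2 fold change of 3.40, the adhesion molecule CADM1 3.32, ANO4 3.33 and CHN1 3.32. VSNL1 rested on 71 UMIs in members and 4 in matrix fibroblasts. In each of these genes all 3 libraries had the higher value in members.

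Adventitial fibroblast genes made up the clearest group on the lower side. Of 12 tested, 11 fell and none rose, with a median log2 fold change of -1.60. C3, the central complement component, had 0, 642 and 1218 CPM in members and 1516, 2085 and 3691 CPM in matrix fibroblasts of control 1, control 3 and asthma 11 (log2 fold change -2.44, SE 0.50). PTGDS, a prostaglandin D2 synthase, had 103, 1098 and 3314 CPM against 2850, 2923 and 11503 CPM (-2.37, SE 0.43). The direction was the same in each library, although asthma 11 members exceeded the fibroblasts of both controls for PTGDS.

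Other genes with a large decrease were TNFAIP8L3 (log2 fold change -3.01), myocilin MYOC (-2.94), the growth factor binding protein IGFBP3 (-2.87), LVRN (-2.81) and the fibulin-family gene EFEMP1 (-2.70). The retinaldehyde reductase DHRS3 (-2.36), the ectonucleotidase ENTPD2 (-2.36) and cytidine deaminase CDA (-2.30) also fell. Of 14 elastic fibre genes tested, 6 fell, among them EFEMP1 and also FBLN5, FBLN2 and FBLN1 (-1.79, -2.28 and -2.11), and 2 rose, LTBP1 and MFAP2. Among associated collagens COL14A1, COL6A2, COL6A1 and COL16A1 fell out of 9 tested, while the basement membrane collagens COL4A1 and COL4A2 rose (2.89 and 1.09).

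**Figure D4:**
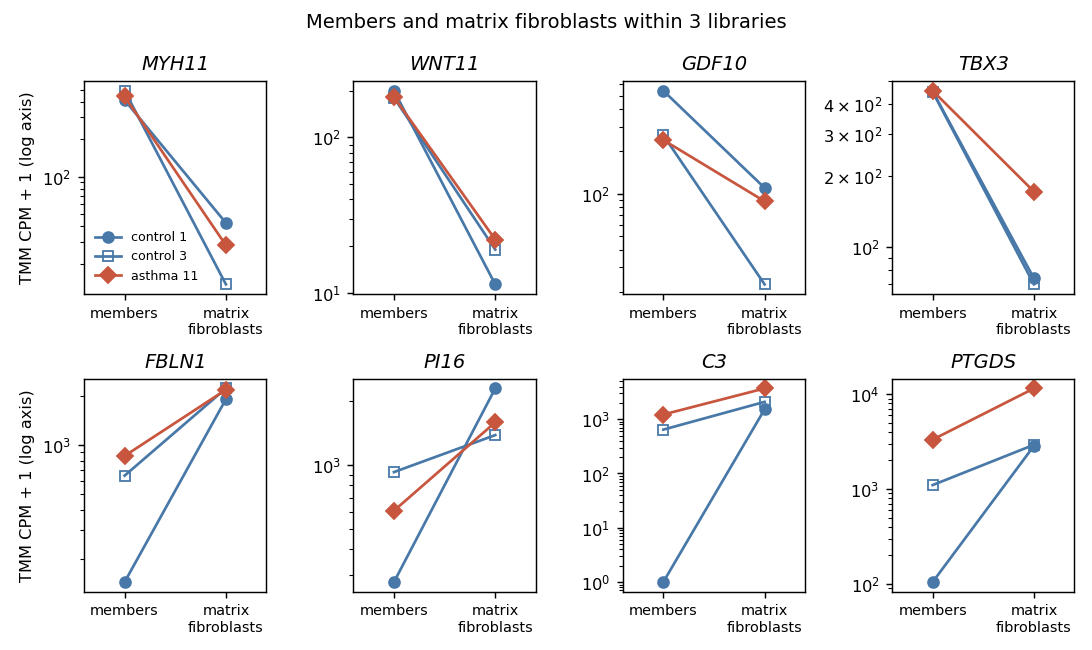
TMM-normalized CPM + 1 on log axes of 8 genes in members and in matrix fibroblasts, with a line joining the classes of 1 library (control 1, control 3 and asthma 11). MYH11, WNT11, GDF10 and TBX3 are higher in members in each library, and FBLN1, PI16, C3 and PTGDS are lower.

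Integrin subunits ITGA1 and ITGA9 rose (log2 fold changes 2.04 and 1.90), with ITGB1, out of 7 tested. Of 6 inflammatory mediators tested, 5 fell, namely VCAM1, IL33, CSF1, CXCL12 and CCL11. IL33, an alarmin cytokine, had 7.94, 63.6 and 36.6 CPM in members against 109, 151 and 70.8 CPM in matrix fibroblasts (-1.37, adjusted p = 0.00914). Of 11 asthma cytokine and drug receptor genes, PDE4B, a phosphodiesterase, rose (1.45) and OSMR, the oncostatin M receptor, fell (-1.19).

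The epithelial gene SFTPC was also called lower in members (log2 fold change -3.20). It had 254, 17.3 and 561 CPM in members and 19102, 10.8 and 1356 CPM in matrix fibroblasts, so control 1 decided its value, and in control 3 the members were higher. Summed epithelial markers in the matrix fibroblasts were 17251 CPM in control 1, 1448 CPM in control 3 and 2525 CPM in asthma 11. Immediate-early genes summed to 17034, 8351 and 6642 CPM in members and to 7060, 5236 and 5977 CPM in matrix fibroblasts, and 3 of 15 tested (IER3, ATF3 and KLF6) rose in members. The part of both lists in the other differences was not tested.

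The counts depended on the libraries and on the tool. Without control 1, 136 of 6632 genes tested were called, and DESeq2 called 76 higher and 68 lower of 4742. With all 6 libraries, 129 of 3481 genes were higher (3.71%) and 224 lower (6.43%); of the 142 genes higher in the 3-library fit that could be tested there, 109 were called again, and 204 of 250 of the lower ones. When members were limited to cells with at least 4 listed genes, 460 of 3015 genes tested were called over 4 libraries.

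Against contractile smooth muscle, members had lower levels of the contractile genes MYL9 and TAGLN and higher levels of APOE, LRP1 and LTBP4. The 5 libraries with at least 4 cells of both classes entered the fit, since only control 3 reached 10 smooth muscle cells. Of 476 genes tested, 44 were higher in members (9.24%) and 69 lower (14.5%). The gates split these classes on ACTG2, CNN1 and DES, which favours lower levels of other contractile genes in members.

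MYL9, the regulatory light chain of smooth muscle myosin, had 572, 501, 327, 373 and 544 CPM in members of control 1, control 2, control 3, asthma 8 and asthma 11. The smooth muscle cells of the same libraries had 15049, 9386, 14341, 9582 and 8982 CPM. The classes were far apart in each library (log2 fold change -4.66, SE 0.26, adjusted p = 5.51e-06). TAGLN ranged from 1128 to 4799 CPM in members and from 18454 to 32549 CPM in smooth muscle (-3.01, SE 0.29).

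Several other contractile genes could be tested largely through smooth muscle, such as PPP1R14A with 56 UMIs in members and 298 in smooth muscle. For that reason no count is given over the contractile list here. The median log2 fold change over all genes tested was -0.02. PPP1R14A, an inhibitor of myosin phosphatase, had a log2 fold change of -5.11, TPM1 of -3.60, TPM2 of -3.17 and the small heat shock protein CRYAB of -2.92. WFDC1, creatine kinase CKB, CSRP1 and the actin-severing protein DSTN had -3.88, -3.37, -2.84 and -2.62. MYH11, higher than in fibroblasts, was lower than in smooth muscle (-2.13).

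On the other side, C7, a terminal complement component, ranged from 920 to 14184 CPM in members and from 0 to 467 CPM in smooth muscle (log2 fold change 5.42, SE 0.78). It rested on 7 UMIs in the smooth muscle cells. APOE, which carries lipids, had 2238, 877, 1444, 6180 and 6584 CPM in members against 583, 0, 256, 177 and 617 CPM (3.03, SE 0.37). PLTP, LRP1, SLIT3, LAMB1, IGSF10, MAN1A1 and FOSB also rose, with log2 fold changes between 1.97 and 3.48. They rested on 7 (PLTP and IGSF10) to 38 UMIs (FOSB) in the smooth muscle cells.

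Only 4 of 15 adventitial fibroblast genes could be tested, C7, GSN, SERPINF1 and CLEC3B. They passed the low-count filter mainly through members (2040, 2154, 1288 and 3951 UMIs, against 7, 56, 10 and 66 in smooth muscle), so nothing is read from their rise as a list. CHRDL1, a secreted BMP antagonist, rose (log2 fold change 1.90), as did TGFBR3 (1.10), LTBP4 (1.73) and MFAP4 (1.10). None of 5 transcription factors and neither of 2 integrin subunits tested passed the test. Few smooth muscle cells stood behind these values, since 33 of the 57 came from control 3 and the 2 of asthma 10 did not enter. Without control 3, 31 of 237 genes tested were called, and DESeq2 called 43 higher and 43 lower of 476.

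Against pericytes, members had higher levels of SPON2 and LTBP1 and lower levels of PDGFRB, COL4A2 and EDNRA. Only the 3 asthma libraries had at least 4 cells of both classes, and only asthma 11 had at least 10, so this comparison holds within the asthma group. Of 772 genes tested, 169 were higher in members (21.9%) and 192 lower (24.9%). The gates split these classes on COX4I2, HIGD1B, NOTCH3 and KCNJ8, which favours lower levels of other pericyte genes in members.

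SPON2, a secreted matrix protein, had 551, 784 and 760 CPM in members of asthma 8, asthma 10 and asthma 11 and 0, 0 and 6.78 CPM in pericytes. That is 215 UMIs against 1, a 139-fold ratio with a counting interval of 24.7 to 5511. LTBP1 had 1287, 1990 and 1247 CPM in members and 0, 0 and 108 CPM in pericytes (log2 fold change 4.12, SE 0.49). Both genes separated the classes in all 3 libraries.

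PTGDS, CLEC3B, MMP23B, PI16, TENT5A, IGFBP5, FBLN1, C3 and CHRDL1 were the other genes with the largest increase, with log2 fold changes between 4.18 and 5.68. Several of them were near absent in pericytes, with 10 UMIs of PI16, 17 of FBLN1 and 21 of CLEC3B, and so could be tested through their counts in members. For that reason no count is given over the adventitial and elastic fibre lists here. The median log2 fold change over all genes tested was -0.10. Members of asthma 8 and asthma 10 numbered only 9 and 7, of which 6 and 2 had just 2 listed genes.

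Pericyte genes not used by the gate could likewise be tested largely through their counts in pericytes, and no count is given over their list. PDGFRB, the PDGF receptor of mural cells, had 551, 543 and 394 CPM in members and 5576, 4843 and 5589 CPM in pericytes (log2 fold change -3.51, SE 0.38). GUCY1A1 and GUCY1B1, the subunits of the nitric oxide receptor, had -5.97 and -5.05, and the calcium channel TRPC6 -4.95. The matricellular protein periostin, POSTN, had 882, 1628 and 44.7 CPM in members against 9240, 12019 and 4790 CPM (-4.21).

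SLC35G1 and PTP4A3 had no UMI in members and 137 and 78 in pericytes, which makes them at least 70.7-fold and 40.2-fold lower, with 3 UMIs over all members taken as the limit. COLEC10 (1 UMI against 175), the vessel-destabilizing ligand ANGPT2 (3 against 362) and the potassium channel KCNK3 (3 against 313) were lower by ratios of 271 (counting interval 48.0 to 10761), 187 (63.4 to 910) and 162 (54.8 to 787). CA2, EGFL6, EDN3 and NDUFA4L2 fell as well. Among basement membrane genes LAMA2 (-4.37) and COL4A2 (-3.12) fell, whereas COL4A1 and COL4A2 had risen against matrix fibroblasts.

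T-box factors were lower in members than in pericytes for TBX4 (log2 fold change -2.1), TBX2 (-1.90) and TBX3 (-0.93). TBX5 did not pass the test (-0.79, edgeR adjusted p = 0.0869). The contractile genes TPM1 (-2.37) and MYL9 (-2.15) also fell. Members of asthma 8 and asthma 10 held 5 and 3 UMIs of TPM1, 9 and 5 of MYL9 and 2 and 9 of TBX4. Because such genes could be tested largely through pericytes, no count is given over the contractile and transcription factor lists here. IL13RA1, a subunit of the IL-13 receptor, was lower (-1.87, SE 0.38), as was the endothelin receptor EDNRA (-2.68). Without asthma 11, 133 of 650 genes tested were called, and without asthma 8, 706 of 3624.

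The comparison of the asthma with the control group within members rested on few cells. Only control 1, control 3 and asthma 11 reached 10 members, so the fit as designed set a single asthma library against 2 controls, with asthma 11 assumed to vary like the controls. It called 20 of 3861 genes higher (0.518%) and 15 lower (0.389%), and DESeq2 called none. With a minimum of 4 members all 6 libraries entered, and edgeR then called 0 of 1537 genes higher (0%) and 0 lower (0%), 81 genes had an unadjusted p under 0.05, and DESeq2 called 6, all higher.

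In the 3-library fit, the increase in asthma 11 was largest for INMT, CCL11 and SCN7A among genes with a symbol. INMT, a methyltransferase of lung fibroblasts, had 0 UMIs in control 1 and control 3 and 76 in asthma 11, at least 18.96-fold higher (3 UMIs over both controls taken as the limit). CCL11, the eosinophil chemokine eotaxin, had 1, 0 and 140 UMIs, a ratio of 105 (counting interval 18.5 to 4168). SCN7A had 0, 3 and 95 UMIs, a ratio of 23.7 (7.87 to 117).

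IGFBP3 had 0, 3 and 63 UMIs, a ratio of 15.7 (5.14 to 78.2). PPP1R14A, the non-coding 7SK RNA, PTGDS, APOD, MEGF6 and ASIP completed the group, with log2 fold changes between 2.23 and 3.07. On the lower side, MEPE, a bone matrix phosphoglycoprotein, had 6, 59 and 0 UMIs, at least 28.95-fold lower in asthma 11. POSTN had 20, 30 and 11 UMIs and fell by 2.67 on the log2 scale, but its log2 fold change over 6 libraries was 0.21. MYOC, the retinol carrier RBP4, FAM162B, FAM180B, MEDAG, ANGPTL5, EIF4G3 and the leptin receptor LEPR were also called lower, and the first 4 of these rested on 1 or 2 UMIs in asthma 11. None of these 35 genes was called over 6 libraries, where 16 of them could be tested.

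Across 6 libraries, the groups did not overlap in 180 of 1537 genes (11.7%). The genes named next were picked from these, so their lack of overlap is not itself a result. ITIH5 (ENSMFAG00000038573), a hyaluronan-binding protein, had 81.7, 84.1 and 77.7 CPM in members of control 1, 2 and 3 and 460, 503 and 332 CPM in asthma 8, 10 and 11. The gene did not pass the threshold (log2 fold change 2.32, SE 0.39, edgeR adjusted p = 0.0675), and control 2 rested on 1 UMI.

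A2M (ENSMFAG00000035486), the protease inhibitor alpha-2-macroglobulin, had 2226, 2354 and 3024 CPM in the controls and 10362, 16977 and 10135 CPM in the asthma libraries (log2 fold change 2.29, SE 0.41, adjusted p = 0.0675). APOE had 1838, 588 and 1065 CPM against 4568, 7413 and 4980 CPM (2.20, adjusted p = 0.102). APOD and the proteoglycan BGN came from the same set (2.66 and 1.48, edgeR adjusted p = 0.0903 and 0.291). None of these genes passed the test, and the groups were without overlap in 11.7% of all genes tested.

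Of these genes, A2M and APOE can be set beside the matrix fibroblasts. APOE made up 4398 of the 4556 CPM of 12 lipofibroblast genes there. Their sum in matrix fibroblasts was 2556, 3015 and 1148 CPM in the controls and 6819, 6009 and 6968 CPM in the asthma libraries. In members it was 1472, 734 and 895 CPM in the controls and 3118, 5830 and 3879 CPM in the asthma libraries. On the scale of a joint fit, A2M in matrix fibroblasts was 4256, 3663 and 2284 CPM in the controls and 7477, 10824 and 14181 CPM in the asthma libraries. The asthma minus control change in A2M differed between members and matrix fibroblasts by 0.60 on the log2 scale (SE 0.68, adjusted p = 0.99997). Within members of asthma 11, A2M was 10915 CPM (not TMM-normalized) in cells with 2 listed genes, 8969 with 3 and 3280 with 4 or more, against 1482, 1986 and 1472 CPM in control 1. The corresponding levels of control 3 were 1357, 3871 and 1927 CPM. In cells with 3 listed genes the groups overlapped, since the 2 such cells of asthma 8 had 2333 CPM. In the other bins they did not. Asthma 8 and asthma 10 had 7035 and 19377 CPM with 2 listed genes, where control 2 had no cell. With 4 or more they had 7406 and 5875 CPM, and control 2 had 2555 CPM. These bins held few cells, 2 in asthma 10 with 2 listed genes and 1 in asthma 8 with 4 or more.

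On the lower side, the genes with the smallest p among those whose groups did not overlap were the heat shock co-chaperone DNAJB1, with 684, 336 and 241 CPM in the controls and 92.0, 91.5 and 174 CPM in the asthma libraries, MARCKSL1, the tubulin TUBB4B, FXYD6 and STMN1. None passed the test (log2 fold changes between -1.61 and -1.15, adjusted p from 0.451 to 0.780). Asthma 8 and asthma 10 had between 0 and 4 UMIs of each. The immediate-early gene FOSB had a smaller p, but its groups overlapped (log2 fold change -2.01, adjusted p = 0.318).

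**Figure D5:**
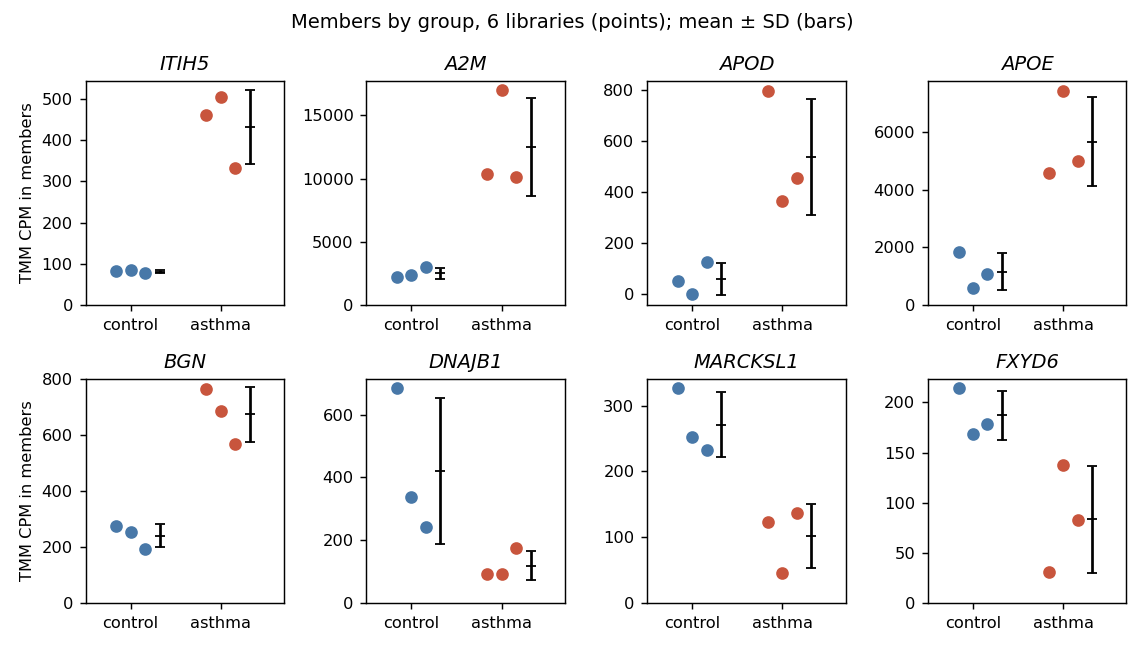
Points give TMM-normalized CPM in members of each library for 8 genes, with mean ± SD (n = 3) beside them, for control (blue) and asthma (red). The 8 genes were picked from those whose groups did not overlap, and none passed the adjusted threshold.

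By gene list, no member of any list was called over 6 libraries. All 5 alveolar fibroblast genes tested and all 5 associated collagens tested had positive log2 fold changes, with medians of 1.18 and 1.36 against 0.01 over all genes. The share of member UMIs from cells with 2 listed genes differed by library. It was 41933 of 50675 in asthma 8, 14863 of 28990 in asthma 10 and 149151 of 424898 in asthma 11. Among the controls it was 21597 of 135850 in control 1 and 106865 of 182137 in control 3, and control 2 had no such cell. The part of this mix in the changes was not tested. All 10 immediate-early genes tested had negative values, with a median of -0.73. Their summed level in members was 17034 CPM in control 1, 4137 in control 2, 8351 in control 3, 2684 in asthma 8, 4726 in asthma 10 and 6642 in asthma 11, so the groups overlapped and control 1 was the highest.

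The contractile list had a median of -0.06 over 11 genes, with 5 positive, and the BMP list -0.15 over 9. T-box and other transcription factors had a median of 0.12 over 14. In the elastic fibre list 9 of 12 values were positive, with a median of 0.54, and 4 of the 12 did not overlap between groups, against 11.7% of all genes tested. Summed epithelial markers in members were 294, 267 and 571 CPM in the controls and 750, 483 and 906 CPM in the asthma libraries, and their part in these values was not tested. Without control 3, 15 of 922 genes tested were called, all higher in asthma.

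Whether the asthma change differed between members and matrix fibroblasts was tested as an interaction. Over control 1, control 3 and asthma 11, where 1 library stands for the asthma group, the change was higher in members for 9 of 6418 genes (0.14%) and lower for 2 (0.0312%). Over 6 libraries it was higher for 2 of 4592 genes (0.0436%) and lower for 0 (0%), with 182 genes at an unadjusted p under 0.05 and none called by DESeq2. The gene with a symbol called in both fits was DEFB1, an antimicrobial peptide of epithelium.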

How the data were processed

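The deposited files hold UMI counts per gene and cell barcode for 6 libraries, which the authors made with Cell Ranger (4.0.0 in the matrix headers, 2.1.1 in the submitters' processing notes) on a cynomolgus annotation. Libraries were assigned to the control or asthma group by their labels. The 35133 barcodes were limited to cells with over 500 and under 5000 genes, a minimum of 500 UMIs and a mitochondrial share (13 genes) of 25% or less. This left 25388 cells, more than the study's methods state.

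The members and the gene lists were chosen with earlier results of these data known. Counts were summed per library and cell class and tested with edgeR 4.0.16 (quasi-likelihood F test, TMM, filterByExpr, R 4.3.3), with Benjamini-Hochberg adjustment over all genes tested, and the 35 gate genes were left out of counts and named tests. Class comparisons kept the library as a block. Libraries needed 10 cells of a class. A minimum of 4 cells was added after seeing the data, since the smooth muscle and pericyte comparisons could not be fitted at 10. Values given in comparisons are TMM-normalized CPM, and levels elsewhere are CPM of the summed counts. Shares have exact binomial intervals (SciPy 1.17.1). The fits were tested on simulated data.

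Named genes were up to 10 DEGs with a symbol per direction by size of change (in class comparisons at a mean of at least 50 CPM in the higher class and the same sign in each library; between groups only without overlap), 5 per direction by smallest p where fewer were called, up to 5 per direction of the interaction, and up to 4 genes of each list by smallest p. Further list members were named after their values were seen. Alternatives were a mitochondrial limit of 10%, testing without a low-count filter, DESeq2 1.42.0, no SOSTDC1 requirement (3 of 6 listed genes instead), removal of likely doublets, at least 2 SOSTDC1 UMIs, cells thinned to 2000 UMIs, other denominators of the share and leaving out each library. Doublets were not removed in the reported values. Scrublet (scanpy 1.11.5) at its own threshold marked 10 cells (0.0394%) and so did not work, and the 1194 highest-scoring cells left out in the alternative held 1 member. No genome of the files' build was used, so neither coordinates nor sequences are given.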

Additional observations from a re-analysis of the deposited data

Results flagged for a closer look

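The difference between asthma 11, the single asthma library in this fit, and control 1 and control 3 was unequal in members and matrix fibroblasts for 6 named genes by the edgeR interaction test. With 1 asthma library the test compares that animal with 2 controls and cannot show an asthma change. DESeq2 called 1 gene in all, and over 6 libraries edgeR called DEFB1 alone of the 5 that could be tested and DESeq2 none. DEFB1 had 204, 104 and 323 CPM in members and 339, 146 and 17.3 CPM in matrix fibroblasts, a difference of 4.82 on the log2 scale, and 3.63 over 6 libraries. HHIP, which binds hedgehog ligands, had 90.7, 218 and 78.5 CPM in members and 420, 210 and 7.19 CPM in matrix fibroblasts, a difference of 4.25. In both genes the matrix fibroblasts of asthma 11 were the lowest value.

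IGFBP3 had 0, 16.4 and 137 CPM in members and 633, 372 and 429 CPM in matrix fibroblasts, a difference of 3.96. CCL11 had 7.56, 0 and 305 CPM against 167, 81.1 and 432 CPM, a difference of 4.58. For these genes the members of control 1 and control 3 held between 0 and 3 UMIs.

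MT3, a metallothionein, differed by 2.32, with 416, 240 and 539 CPM in members and 977, 298 and 186 CPM in matrix fibroblasts. BMP3, a BMP-family ligand, differed by -4.93, with 22.7, 49.2 and 8.72 CPM in members and 20.3, 7.06 and 80.6 CPM in matrix fibroblasts. Groups of 3 libraries were too small for a check of single outlying values.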

How the results depend on the processing

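No paired analysis was possible because the control and asthma groups share no replicate numbers. The share difference of 0.215 percentage points kept its sign under 6 other settings (0.0741 to 0.490) but was -1.54 over PTPRC-negative cells and -10.7 over the 4 mesenchymal classes, and ran from -0.645 without asthma 11 to 0.660 without asthma 10, with -0.140 without control 2. The 35 DEGs between groups became 0 with DESeq2, 0 without the SOSTDC1 requirement and 0 at 4 cells per library, where POSTN turned to 0.21. From 0 DEGs of 1537 genes over 6 libraries, DESeq2 gave 6 of 1537 and no filter on low counts 20 of 12919. A 10% mitochondrial limit gave 3 of 1447. Leaving out 1 library gave 0 to 15 (15 of 922 without control 3). The 460 DEGs of 4742 genes against matrix fibroblasts became 144 of 4742 with DESeq2. With 1 library left out they became 136 of 6632 (without control 1) to 391 of 5007. The 353 of 3481 over 6 libraries became 569 of 15222 without a filter. With 1 library left out they became 213 of 3014 (without asthma 11) to 420 of 3591. Against smooth muscle, 113 of 476 became 257 of 13192 without a filter and 31 of 237 (without control 3) to 128 of 856. Against pericytes, 361 of 772 became 604 of 13364 without a filter. With 1 library left out they became 133 of 650 (without asthma 11) to 706 of 3624, with 677 of 3405 without asthma 10. The 11 interaction calls became 1 with DESeq2, 19 without the SOSTDC1 requirement and 2 at 4 cells, and the 2 over 6 libraries became 0 with DESeq2, 1 without the SOSTDC1 requirement and 0 (without asthma 11) to 18 (without control 3). The number of genes tested changed with the setting, so these counts are not on one scale. The cause of these shifts was not tested. Where a fit rests on 1 library of a group, that library is assumed to vary like the others, and the fit between groups over 3 libraries has 1 residual degree of freedom. Control 2, asthma 8 and asthma 10 held 4, 9 and 7 members, and the size of difference detectable with so few cells was not measured.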
